A study of Homo sapiens with 8 samples.

Results

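Cytokine and receptor genes of the IL-6 and IL-1 families were examined in A549 cells exposed to primary pollutants or to photochemically altered (PCA) pollutants. The 10 genes, chosen by name, are the IL-6 family ligands IL6, LIF and IL11, the receptor chains IL6R and IL6ST with the feedback inhibitor SOCS3, the IL-1 ligands IL1A and IL1B, and the IL-1 receptor chains IL1R1 and IL1RAP. They are 10 of 18377 genes that have a probe set under their own symbol on the arrays, and each of the 10 has 1 such probe set. A549 is an unmodified cell line derived from a human lung adenocarcinoma and is often used as a model of alveolar type II epithelium. The cells were exposed for 4 hr at an air-liquid interface, on collagen-coated membranes, and RNA was collected 9 hr later. Of the 4 groups, with 2 arrays each, the morning control and the evening control received air without pollutants (incubator air in the study's methods, humidified air in the labels). The primary group received the fresh urban mix, hydrocarbons with nitrogen oxides, in the morning, and the PCA group received the mixture aged in sunlight, with its secondary products, in the evening. The methods call the 2 arrays of a group biological duplicates. The arrays of a group shared an exposure period, so p-values measure the spread within a period, and mixture, time of day and exposure run cannot be told apart in a comparison of the responses.

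Ligands of the IL-6 family signal through receptor complexes that share the chain gp130, the product of IL6ST. Binding activates JAK kinases and the transcription factor STAT3, and SOCS3, itself a STAT3 target, shuts the signal down. IL-1 alpha and IL-1 beta bind the receptor IL1R1, which recruits IL1RAP and activates NF-kB and AP-1 through MyD88 and IRAK kinases. In the airway, epithelial cells both release these cytokines after injury and respond to them with chemokines that draw in neutrophils and monocytes.

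After the PCA pollutants, IL11 rose and none of the 10 genes fell by the limits used here, an adjusted p under 0.05 in limma together with a change of 1.5-fold or more. IL1A also passed these limits, but it met the minimum signal for testing only through 1 of the PCA arrays. The receptor chains IL6ST and IL1R1 had adjusted p-values under 0.05 on the lower side, with fold changes short of 1.5. After the primary pollutants none of the 10 genes changed. Both calls depended on single arrays or on the scale of the arrays, as given with each gene, and the IL1A signal was at the low end of what the arrays measured. In bulk RNA, a change in the number of cells that make a transcript and a change in its amount per cell cannot be told apart.

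A gene is said here to rise, fall or change only when it passed both limits in limma, fitted to all 8 arrays with Benjamini-Hochberg adjustment over all probe sets tested. Testing required a signal, the linear form of the deposited log2 value, of 30 or more on any array of the comparison. Across the whole table this gave 0% of genes changed after the primary pollutants and 3.53% after the PCA pollutants, of which 0.876% rose and 2.66% fell. An adjusted p under 0.05 with any fold change was found for 19.9% of genes after the PCA pollutants. Correlations between the arrays of a group were 0.994 to 0.997. All 11 markers of epithelial or A549 cells reached 30 on all 8 arrays. So did all 7 alveolar type II markers with a probe set, 6 of 9 leukocyte markers and 8 of 10 fibroblast or endothelial markers. PTPRC was the 1 leukocyte marker under 30 on all 8. Mean log2 signals on the evening control arrays were 11.64 and 11.72 for the epithelial markers and 6.44 and 6.50 for the alveolar type II markers. They were 6.27 and 6.32 for the leukocyte markers and 5.97 and 6.01 for the fibroblast or endothelial markers. The median of all probe sets on those arrays was 6.95. Reaching 30 met the minimum for testing and does not by itself show that a marker is expressed. Of 7 alveolar type II markers, 8 leukocyte markers and 9 fibroblast or endothelial markers tested, none changed after the PCA pollutants, and 0, 3 and 4 of them had an unadjusted p under 0.05 in limma. Over all genes tested, 37% had such a p in that comparison. Of the 11 epithelial markers, 3 had an unadjusted p under 0.05 and 1 changed. This was the adhesion gene CDH1, which fell by 1.11 on the log2 scale. KRT7 was at 0.34 (adjusted p = 0.0309 in limma) and NQO1 at -0.29 (adjusted p = 0.0305), short of 1.5-fold. The split of all called genes depended on scale, with 153 of 617 rising as deposited, 104 of 773 with arrays centred on their medians and 446 of 637 with arrays scaled to ribosomal protein genes, which moved the median of all genes to 0.14.

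Promoter sequences of IL11 and IL1A are shown because these were the genes that passed after the PCA pollutants. They are RefSeq sequences on GRCh38.p14 covering the 250 bases before an annotated start, written 5′ to 3′ on the strand of the gene, with matches to the AP-1 letters TGANTCA in capitals. The IL11 sequence lies on the minus strand at chr19:55370464-55370713, and that of the first of 2 annotated IL1A starts on the minus strand at chr2:112784401-112784650.
IL11: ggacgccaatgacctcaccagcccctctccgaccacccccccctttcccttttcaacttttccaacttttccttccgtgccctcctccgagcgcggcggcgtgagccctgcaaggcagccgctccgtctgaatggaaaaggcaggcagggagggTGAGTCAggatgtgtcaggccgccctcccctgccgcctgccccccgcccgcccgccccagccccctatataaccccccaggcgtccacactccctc
IL1A: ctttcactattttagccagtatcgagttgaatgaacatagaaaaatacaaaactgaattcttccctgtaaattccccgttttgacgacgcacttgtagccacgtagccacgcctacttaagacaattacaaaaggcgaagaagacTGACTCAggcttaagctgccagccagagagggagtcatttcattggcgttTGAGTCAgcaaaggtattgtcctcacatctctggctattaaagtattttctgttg
Matches were sought on both strands from 250 bases before to 50 after each start, for 14 starts of 9 of the 10 genes. IL11 held 1 AP-1 match, beginning at position -96 from the start. IL1A held 2, at -105 and -55 from the start shown, and IL6R held 1 at position 38, after its start. AP-1 letters thus stood at 4 of the 14 starts, the 2 IL1A starts having overlapping windows, and in 7.71% of 35116 human promoters of the same length. The STAT letters TTCNNNGAA were found at 2 of the 14 starts, that of IL1B and 1 of 4 of IL1R1, against 7.66% of all promoters. No match was found in the 9 genes to the CRE letters TGACGTCA (1.85% of all promoters) or to GGGNNTTCC (6.58%), a short form of the NF-kB site. Forms of a site with other spacing are not counted by these letters. The IL6 sequence, for example, holds GGGATTTTCC, a longer form that GGGNNTTCC misses and that was not counted in any gene. A match describes letters in a sequence and not binding.

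**Figure D1:**
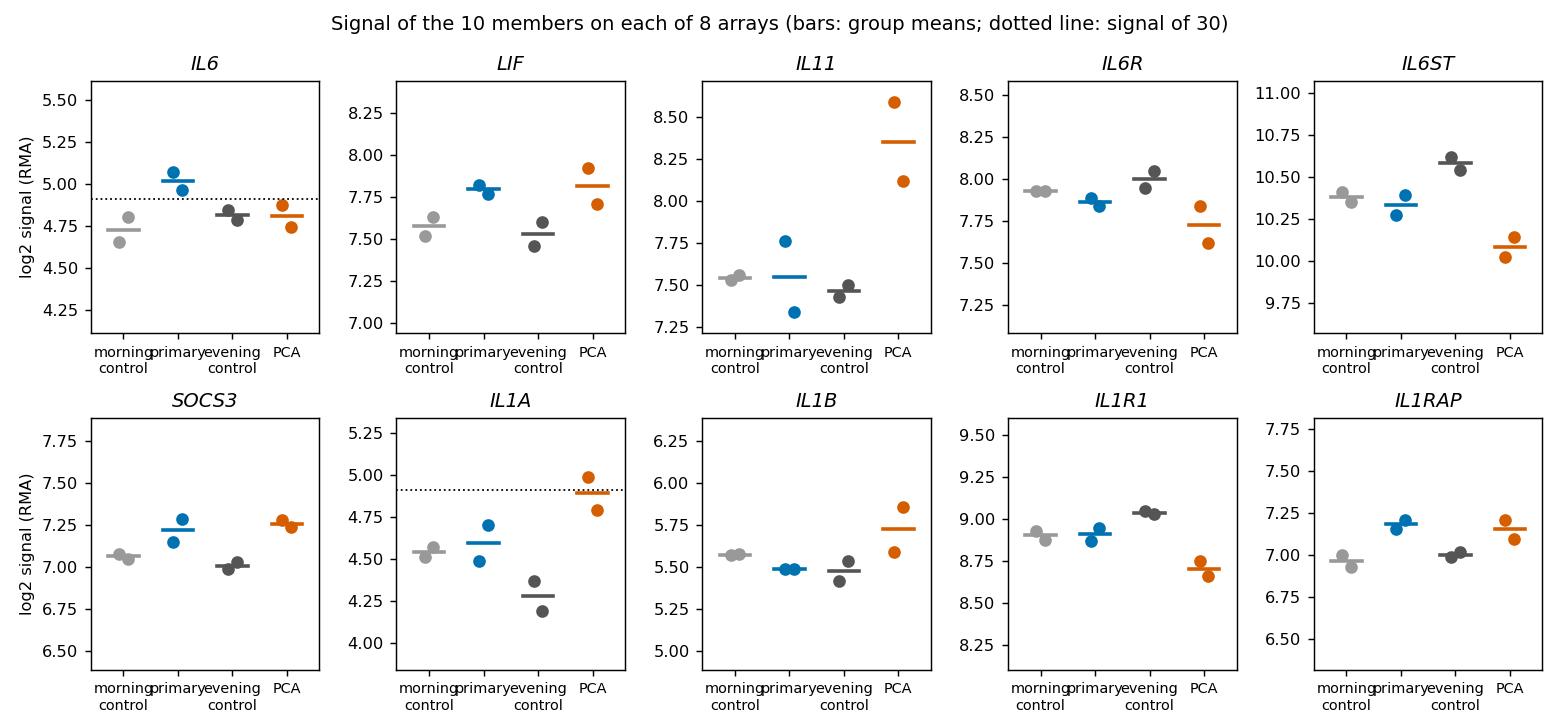
Log2 signal (vertical axis, the same span of 1.5 in each panel) of the 10 genes in the 4 groups, with a point for each array, group means as bars and a dotted line at a signal of 30 for IL6 and IL1A. Both PCA arrays stand above the others for IL11 and IL1A and below the others for IL6ST and IL1R1, while IL6 and IL1A lie mostly under the line.

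IL11, a cytokine of the IL-6 family that acts on fibroblasts and epithelium, rose after the PCA pollutants. Its log2 signals were 7.43 and 7.50 in the evening control and 8.59 and 8.12 after the PCA pollutants. They were 7.53 and 7.56 in the morning control and 7.76 and 7.34 after the primary pollutants. Both PCA arrays lay above all 6 others, and the 2 arrays of each exposed group were farther apart than those of each control group. The PCA group had a mean of 8.36 ± 0.335 against 7.47 ± 0.0484 in the evening control (SD, n = 2 arrays). In signal, the group geometric means were 328 and 177, a 1.85-fold rise. The log2 fold change of IL11 was 0.89 (standard error 0.175, 95% confidence interval 0.48 to 1.29, adjusted p = 0.0145 in limma). It was 0.00 after the primary pollutants, within an interval of -0.40 to 0.41 (adjusted p = 0.999). The call was lost without evening control replicate 1 (adjusted p = 0.072), without evening control replicate 2 (0.0663) and without PCA replicate 1 (0.0524), and the log2 fold change without that PCA array was 0.65.

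IL1A, which encodes an IL-1 that cells hold in their interior and release when injured, was higher after the PCA pollutants, at a signal near background. Its signal was 20.7 and 18.2 in the evening control and 31.8 and 27.7 after the PCA pollutants. It was 22.8 and 23.7 in the morning control and 22.5 and 26 after the primary pollutants. Both PCA arrays were the highest of the 8, and both evening controls were the lowest. IL1A reached 30 on 1 array, PCA replicate 1, so it was tested only through the group in which it was high. On the log2 scale the PCA group averaged 4.89 ± 0.141 against 4.28 ± 0.13 for the evening control (SD, n = 2 arrays). The PCA mean of IL1A was 1.53-fold higher, a log2 fold change of 0.61 (standard error 0.11, 95% confidence interval 0.35 to 0.87, adjusted p = 0.0109 in limma). Against the morning controls in place of the evening controls it was 0.35 (adjusted p = 0.059). Median centring put it under the fold limit (0.55), without evening control replicate 2 the adjusted p was 0.072, and without PCA replicate 1 the gene was not tested.

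IL1B, the secreted IL-1 that caspase-1 matures, did not pass after either mixture. Its signal was 42.9 and 46.6 in the evening control and 48.2 and 58.2 after the PCA pollutants. The morning controls were at 47.6 and 47.9 and the primary arrays both at 44.9. The PCA arrays lay above their controls and the primary arrays below theirs, by small amounts. After the PCA pollutants the log2 fold change of IL1B was 0.24 (standard error 0.1, adjusted p = 0.12), and after the primary pollutants it was -0.09 (standard error 0.1, adjusted p = 0.856).

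LIF, a cytokine that signals through LIFR and gp130, was higher on both exposed arrays of each mixture than on the matched controls, and neither response passed. Its log2 signals were 7.52 and 7.63 in the morning control and 7.82 and 7.77 after the primary pollutants. In the evening they were 7.46 and 7.60 in the control and 7.92 and 7.71 after the PCA pollutants. The log2 fold changes of LIF were 0.22 (standard error 0.0954, adjusted p = 0.589) for the primary and 0.28 (standard error 0.0956, adjusted p = 0.0719) for the PCA pollutants. The PCA response less the primary response was 0.07, with an interval of -0.25 to 0.38.

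IL6, the acute phase cytokine that names the family, had a signal of only 25.1 to 33.5 and reached 30 on 2 arrays, both of the primary group. The signals were 25.1 and 27.9 in the morning control and 33.5 and 31.2 after the primary pollutants. They were 28.7 and 27.5 in the evening control and 29.3 and 26.7 after the PCA pollutants. The primary arrays were the highest of the 8, whereas PCA and evening control arrays overlapped. For the primary pollutants, through which alone it met the minimum signal, the log2 fold change of IL6 was 0.29 (standard error 0.0884, adjusted p = 0.469 in limma), with an unadjusted p under 0.05. For the PCA pollutants IL6 was not tested, and the group means differed by -0.01 on the log2 scale.

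**Figure D2:**
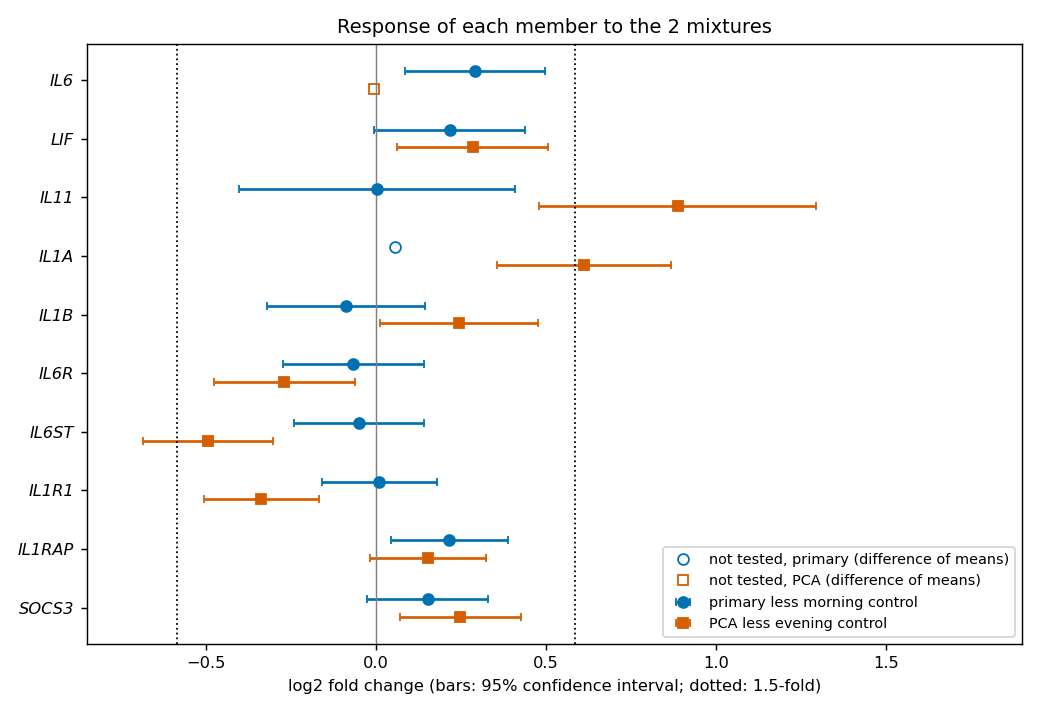
Log2 fold change (horizontal axis) of each of the 10 genes after the primary pollutants (circles) and the PCA pollutants (squares) against the matched control, with 95% confidence intervals from limma as bars, dotted lines at 1.5-fold, and open symbols for genes not tested. IL11 (0.89) and IL1A (0.61) lie beyond the upper line after the PCA pollutants, IL6ST (-0.49) and IL1R1 (-0.34) stand left of 0, and all primary values lie between the lines.

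The shared signalling chain of the IL-6 family was lower after the PCA pollutants by less than the fold limit. IL6ST had log2 signals of 10.62 and 10.54 in the evening control and 10.02 and 10.14 after the PCA pollutants. The morning controls were at 10.41 and 10.35 and the primary arrays at 10.27 and 10.39. The PCA arrays were the lowest of the 8 and the evening controls the highest. The geometric mean signals were 1527 and 1085, and the log2 fold change of IL6ST was -0.49 (standard error 0.0824, 95% confidence interval -0.68 to -0.30, adjusted p = 0.0083 in limma), 1.41-fold lower. Against the morning controls it was -0.30, and without evening control replicate 1 its adjusted p was 0.0585. IL6ST stayed lower in all 22 alternatives, scalings included. It was -0.05 after the primary pollutants (adjusted p = 0.91).

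IL6R, the ligand-binding chain for IL-6, was lower on both PCA arrays without passing. Its log2 signals were 7.95 and 8.05 in the evening control and 7.84 and 7.62 after the PCA pollutants. In the morning they were 7.93 on both controls and 7.89 and 7.84 after the primary pollutants. For IL6R the PCA response was -0.27 on the log2 scale, with a standard error of 0.0892 (adjusted p = 0.0695), and the primary response was -0.07, with a standard error of 0.0891 (adjusted p = 0.886).

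Of the chains of the IL-1 receptor, IL1R1 was lower and IL1RAP slightly higher after the PCA pollutants. IL1R1, which binds the ligand, had log2 signals of 9.05 and 9.03 in the evening control and 8.75 and 8.66 after the PCA pollutants. The morning controls were at 8.93 and 8.88 and the primary arrays at 8.87 and 8.95. Both PCA arrays lay below the 6 others. The log2 fold change of IL1R1 was -0.34 (standard error 0.0728, 95% confidence interval -0.51 to -0.17, adjusted p = 0.0194), 1.26-fold lower, and 0.01 after the primary pollutants (adjusted p = 0.982). IL1R1 stayed lower after the PCA pollutants in all 22 alternatives, with values from -0.40 to -0.19, the latter with arrays scaled to ribosomal protein genes (adjusted p = 0.0964). Its adjusted p was also above 0.05 against the morning controls (-0.20), with quantile or cyclic loess normalization (0.0561 and 0.0618), without either evening control (0.0968 and 0.0942) and without PCA replicate 2 (0.0812). IL1RAP, which completes the signalling receptor, was at 6.99 and 7.02 in the evening control and 7.21 and 7.10 after the PCA pollutants. In the morning it was at 7.0 and 6.93 on the controls and 7.16 and 7.21 after the primary pollutants, so every exposed array was above its controls. The log2 fold change of IL1RAP was 0.15 (adjusted p = 0.171) for the PCA and 0.22 (adjusted p = 0.501) for the primary pollutants, the latter with an unadjusted p under 0.05 in limma.

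SOCS3, which blocks JAK kinases bound to gp130, was slightly higher after both mixtures, and neither response passed. It was at 6.99 and 7.03 in the evening control and 7.28 and 7.24 after the PCA pollutants on the log2 scale. The morning controls were at 7.08 and 7.05 and the primary arrays at 7.15 and 7.29. The log2 fold change of SOCS3 was 0.25 (standard error 0.0764, adjusted p = 0.0572) after the PCA and 0.15 (standard error 0.0763, adjusted p = 0.632) after the primary pollutants.

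Counted over the 8 genes with a signal of at least 30 on all arrays, which leaves out IL6 and IL1A, 1 gene changed after the PCA pollutants, beside 3.53% of all genes, and 3 had an adjusted p under 0.05, beside 19.9%. By unadjusted p under 0.05 there were 7 of 8, 4 higher and 3 lower, against 37% of all genes. The arrays of the PCA and evening control groups did not overlap for any of the 8, against 68.3% of all genes, with 5 higher and 3 lower. After the primary pollutants the arrays did not overlap for 5 of the 8, against 38.7% of all genes, and 1 had an unadjusted p under 0.05 in limma, against 7.96%. The median log2 fold change of the 8 genes was 0.20 after the PCA and 0.01 after the primary pollutants, beside 0.00 and -0.01 over all genes tested.

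None of the 10 differences between the PCA response and the primary response passed, although 4 of the 8 with a signal of at least 30 on all arrays had an unadjusted p under 0.05 in limma. Over all genes, 0.439% of such differences passed and 17.6% had an unadjusted p under 0.05. IL11 had the largest difference, 0.88 (log2, standard error 0.248, 95% confidence interval 0.31 to 1.46, adjusted p = 0.139). The difference was 0.56 for IL1A (standard error 0.156, adjusted p = 0.139), -0.44 for IL6ST (standard error 0.117, adjusted p = 0.123) and -0.35 for IL1R1 (standard error 0.103, adjusted p = 0.153). For IL6 it was -0.30, toward the primary pollutants (standard error 0.125, adjusted p = 0.271), and for IL1B 0.33 (standard error 0.142, adjusted p = 0.279). A response past the limits after the PCA pollutants was therefore not shown to differ from that to the primary pollutants for IL11 or IL1A.

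The evening control was set against the morning control, groups without pollutants between which time of day, handling and run cannot be told apart. None of the 8 genes tested differed by the limits, and over all genes 0% did. IL6ST was higher by 0.19 in the evening (log2, standard error 0.0822, adjusted p = 0.999 in limma), the only 1 of the 8 with an unadjusted p under 0.05, against 5.08% of all genes. The arrays of the 2 controls did not overlap for 6 of the 8, against 41.7% of all genes. The evening less the morning mean was -0.26 for IL1A, which was not tested here, and 0.14 for IL1R1. The evening control had the lowest group mean and the PCA group the highest for LIF, IL11, SOCS3, IL1A and IL1B. For IL6R, IL6ST and IL1R1 the evening control was the highest and the PCA group the lowest. The evening less the morning mean was -0.08 for IL11 and -0.09 for IL1B. The part of such gaps in the PCA responses was not tested. The exchange of controls is given above for IL1A, IL6ST and IL1R1.

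**Figure D3:**
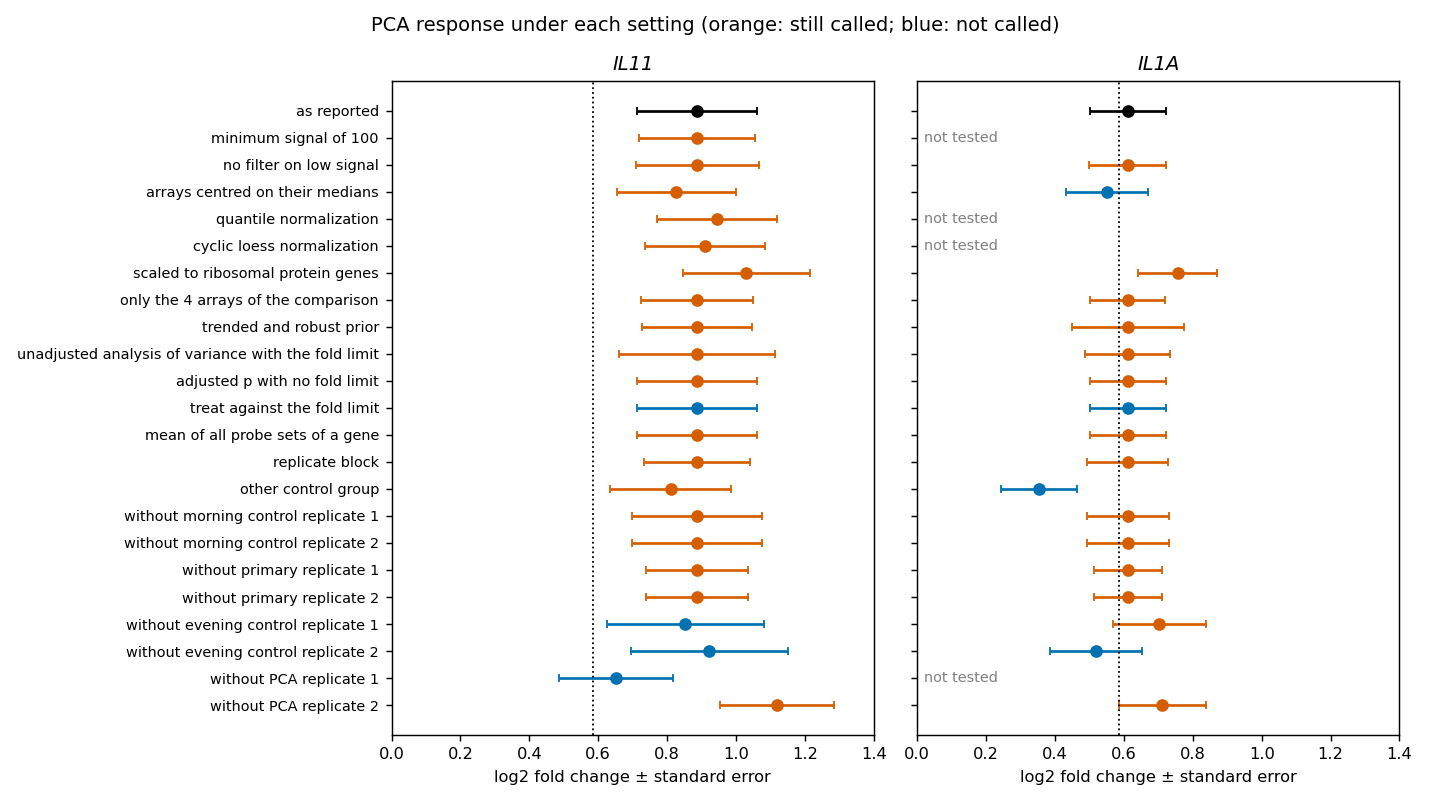
Log2 fold change after the PCA pollutants (horizontal axis, bars ± standard error) of IL11 and IL1A as reported (black) and under each alternative setting (orange where the gene still passed, blue where it did not), with a dotted line at 1.5-fold. IL11 runs from 0.65 to 1.12 and IL1A from 0.35 to 0.76, and IL1A was not tested under 4 settings in which its signal stayed below the minimum.

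Other genes of both pathways were described through 10 lists holding 144 genes, of which 135 had a probe set of their own and 127 were tested. After the PCA pollutants 5 of them rose and 6 fell, where 3.53% of all genes did either, and 59 had an unadjusted p under 0.05, beside 37% of all genes. After the primary pollutants none changed in limma and 19 had an unadjusted p under 0.05, beside 7.96%. The median log2 fold change of the 127 genes was 0.03 after the PCA and 0.01 after the primary pollutants.

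Among 21 target genes of IL-1, 4 rose and 1 fell after the PCA pollutants, with a median log2 fold change of 0.22. Of all genes, 0.876% rose and 2.66% fell. The list was written with earlier results of these data known, so its count is a description. CXCL5, a chemokine for neutrophils, was at 10.29 and 10.25 in the evening control and 11.59 and 11.52 after the PCA pollutants, and rose by 1.28 (log2, standard error 0.124, adjusted p = 0.00163). CCL2, a chemokine for monocytes, rose by 0.97 (standard error 0.11, adjusted p = 0.00248). CXCL8, which encodes the neutrophil chemokine IL-8, was at 7.12 and 7.20 in the evening control and 7.80 and 7.87 after the PCA pollutants. It rose by 0.68 (standard error 0.0703, adjusted p = 0.00209), and stood at 7.16 and 7.19 in the morning control, beside 7.10 and 7.13 after the primary pollutants. Its difference between the responses was 0.74 (standard error 0.0995, adjusted p = 0.0359), the 1 difference that passed among the 127 genes. That call was lost without any of the 8 arrays in turn (adjusted p from 0.0668 to 0.204) and with no filter on low signal (0.0524). With a minimum signal of 100, or with a trended and robust prior, 5 differences passed, those of CXCL8, CXCL5, SOCS2, LIFR and FGA. NFKBIA, which holds NF-kB in the cytoplasm, rose by 0.61 (standard error 0.0716, adjusted p = 0.00265), but did not pass against the morning controls (0.49 on the log2 scale), with median centring (0.55) or without PCA replicate 1 (0.57). After the primary pollutants CCL2 was at 0.84 (standard error 0.11, adjusted p = 0.255) and NFKBIA at 0.59 (standard error 0.0715, adjusted p = 0.24). Those 2 genes did not differ detectably between the mixtures, with differences of 0.13 (standard error 0.156) and 0.02 (standard error 0.101). NFKBIZ, a nuclear cofactor of NF-kB needed for IL6 transcription in several cell types, fell by 0.64 (standard error 0.105, adjusted p = 0.00801). Its call was lost against the morning controls (-0.52) and with ribosomal protein scaling (-0.49), and without evening control replicate 2 (-0.57) or PCA replicate 2 (-0.55). Next by p were MMP1, a collagenase, at 0.47, and CXCL6, another neutrophil chemokine, at 0.51.

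The fibrinogen chains fell together among 26 STAT3 target and acute phase genes, of which 3 fell, none rose and the median was -0.05. Of all genes, 2.66% fell and 0.876% rose, and this list too was written with earlier results known. FGB was at 11.80 and 11.79 in the evening control and 10.82 and 10.96 after the PCA pollutants, and fell by 0.91 (log2, standard error 0.0773, adjusted p = 0.00108). FGA fell by 0.85 (standard error 0.0834, adjusted p = 0.0017) and FGG fell by 0.84 (standard error 0.108, adjusted p = 0.00349). All these chains stood higher in the evening than in the morning control, FGB by 0.30, FGA by 0.39 and FGG by 0.42. Against the morning controls FGB still passed (-0.61), whereas FGA (-0.46) and FGG (-0.43) did not. Also lower without reaching 1.5-fold were the complement gene C3 (-0.44) and JUNB (-0.36), an AP-1 subunit.

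Of 20 carriers of the JAK-STAT signal, SOCS2 rose, GAB1 fell and the median was -0.11. SOCS2, a feedback inhibitor best known for growth hormone signalling, was at 6.59 and 6.73 in the evening control and 7.46 and 7.29 after the PCA pollutants. It rose by 0.71 (standard error 0.113, adjusted p = 0.00705). GAB1, an adaptor downstream of gp130 and of growth factor receptors, fell by 0.61 (standard error 0.142, adjusted p = 0.0238). Its value was -0.31 when all its probe sets were averaged, and its call was also lost without any of the 4 arrays of the comparison, against the morning controls (-0.47) and with ribosomal protein scaling (-0.47). PTPN6, the phosphatase SHP-1, was at -0.47 (adjusted p = 0.00574), and JAK1, the main kinase bound to gp130, at -0.48 (adjusted p = 0.00844). STAT3, chosen after its values were seen, was at -0.42, with 11.15 and 11.18 in the evening control and 10.81 and 10.66 after the PCA pollutants. JAK1, PTPN6 and STAT3 were each lower by less than the fold limit. By unadjusted p under 0.05 in limma, 7 of the 20 carriers were lower and 3 higher. Of all 17470 genes tested, 37% had such a p, 3930 lower and 2535 higher. The higher carriers were SOCS2, SOCS5 (0.36) and PTPN11 (0.22), of which SOCS5 and PTPN11 were also chosen after their values were seen.

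The remaining lists held 1 called gene. CASP4, an inflammatory caspase, fell by 0.71 (standard error 0.104, adjusted p = 0.00562), the 1 change among 8 tested genes of the inflammasome and IL-1 processing. It did not pass with ribosomal protein scaling (-0.56). Not tested in this list were CASP1, CASP5 and AIM2, which stayed under 30 on all 8 arrays. The calpain genes CAPN2 and CAPN1, whose proteases can cleave the IL-1 alpha precursor, were at 0.46 and -0.38. Among 14 carriers of the IL-1 receptor signal none changed and the median was -0.17, with the ubiquitin ligase gene PELI1 at -0.55 and the kinase gene IRAK2 at 0.47. Among 8 other IL-1 family ligands none changed and the median was 0.22, with IL36A at 0.43 and IL36B, which met the minimum signal only on the PCA arrays of that comparison, at 0.50. Of 6 other IL-6 family ligands none changed, with CTF1 at 0.48 and IL31 at 0.23. Of 8 other IL-6 family receptors and sheddases none changed, with LIFR, the partner of gp130 for LIF, at -0.44 and ADAM17, which sheds the IL-6 receptor, at -0.45. None of 7 other IL-1 family receptors changed (IL1RAPL2 at 0.21 and IL1RAPL1 at 0.21), and none of 9 regulators of cytokine mRNA decay did (RC3H1 at -0.40 and HNRNPD at -0.21).

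**Figure D4:**
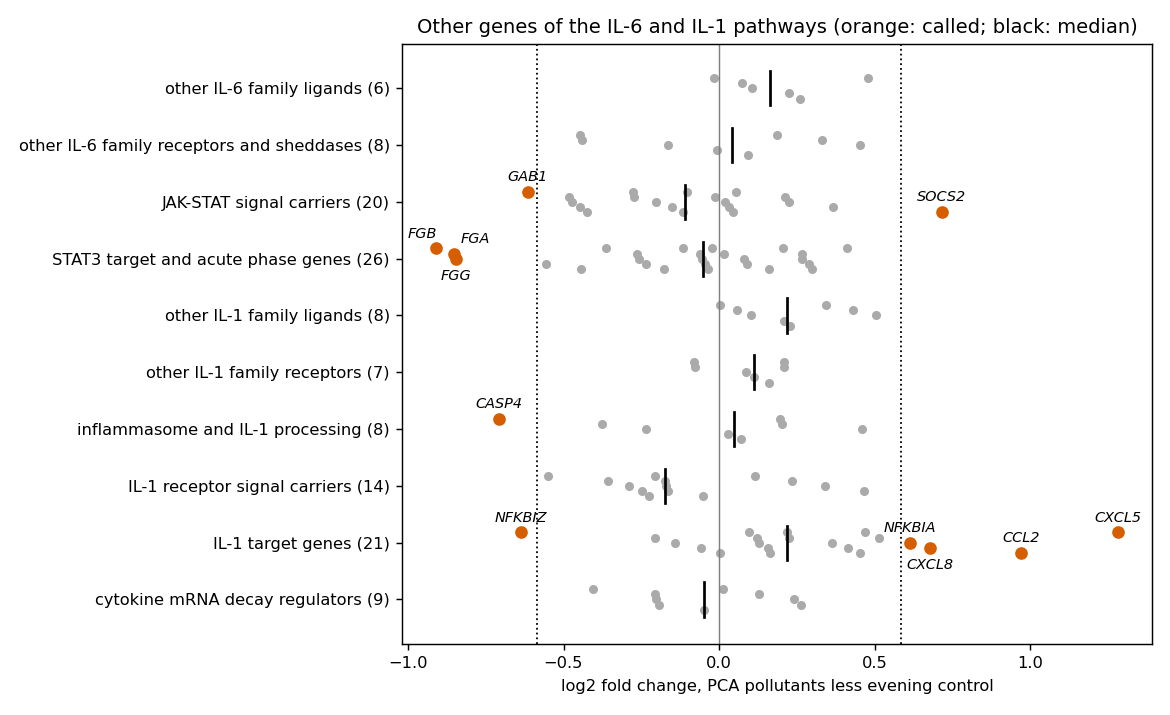
Log2 fold change after the PCA pollutants (horizontal axis) of the 127 other pathway genes tested, by list with the number tested in brackets, called genes in orange with their names, and list medians as black bars. The IL-1 target genes hold 4 of the 5 rises, and the fibrinogen chains FGA, FGB and FGG stand at the far left among the acute phase genes.

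Genes whose log2 signals followed those of IL11 and IL1A most closely over the 8 arrays were listed as a description. Of 17539 other genes, those with the highest Pearson's r to IL11 were DEFB118 (0.992), CDC42EP3 (0.988), SNORA57 (0.986), MECOM (0.98) and CPA4 (0.979). Of these CPA4, a carboxypeptidase, rose after the PCA pollutants by 0.67 (standard error 0.116, adjusted p = 0.00959). Its arrays were at 5.31 and 5.44 in the evening control and 6.13 and 5.96 after the PCA pollutants. The first PCA array was the higher, as for IL11, a likeness that follows from how CPA4 was picked. Nearest to IL1A were STK17A (0.994), TSR1 (0.969), SPDL1 (0.968), NAA15 (0.968) and OR6C6 (0.967). SPDL1, a spindle checkpoint gene, rose by 0.68 (standard error 0.099, adjusted p = 0.00546), whereas OR6C6, at 0.65 (adjusted p = 0.0176), met the minimum signal only on PCA replicate 1. The 8 arrays share 4 groups, so the correlations reflect group means as well as arrays within a group.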

How the data were processed

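RNA of A549 cells was measured on 8 arrays, 2 in each of 4 groups taken from the labels. The deposited log2 signals were made by the authors with robust multichip average normalization, and the submitters' processing notes name Partek 6.4. The genome build behind the probe sets is not given in the sources used here. Of 28869 probe sets, 19310 carry 1 symbol, giving 18377 genes, and the probe set with the highest mean signal stood for its gene. Levels were not compared between probe sets. Group means were fitted to all 8 arrays with lmFit and eBayes in limma 3.58.1 (R 4.3.3), for probe sets with a signal of at least 30 on at least 1 array of the comparison. Calls required a Benjamini-Hochberg adjusted p under 0.05 with a change of 1.5-fold or more. Log2 fold changes had a median standard error of 0.091, and the number of arrays limits the precision. The fit was tested on simulated data. Plots used matplotlib 3.10.9.

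The 10 genes and the lists were chosen with earlier results of these data known. Named were all 10 genes, each list's called genes and up to 2 more of smallest p after the PCA pollutants, and the 5 genes most correlated with each called member. Others are marked. The other tested genes of the lists enter through the counts and medians, and a few listed genes were not analysed here.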

Additional observations from a re-analysis of the deposited data

Results flagged for a closer look

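IL1B drew attention because its arrays moved in opposite directions after the 2 mixtures. Both primary arrays lay below both morning controls and both PCA arrays above both evening controls. Arrays that did not overlap, in either direction, were found for 38.7% of all genes after the primary and 68.3% after the PCA pollutants. The primary log2 fold change of IL1B, -0.09, was within its standard error of 0.1 and changed sign in 2 alternative settings. The signal of IL1B was low, 42.9 to 58.2. The responses of IL1B differed by 0.332 (PCA less primary, log2, standard error 0.142), and in limma this difference did not pass (adjusted p = 0.279).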

How the results depend on the processing

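Of 750 values of the 10 genes under alternative settings, 740 stayed on the same side of the limits, 8 lost a call and 2 gained 1 (IL6ST and IL1R1, with no fold limit). No value reversed where the reported log2 fold change exceeded its standard error, while 18 smaller ones changed sign. The count of the 10 genes called after the PCA pollutants, 2 as reported, was 1 (IL11) with a minimum signal of 100, with median centring, with quantile or cyclic loess normalization and with the morning controls. It was 4 with no fold limit, 0 by limma's treat against the fold limit, and 0 to 2 when each array was left out. It was 1 (IL1A) without evening control replicate 1, and 0 without evening control replicate 2 or PCA replicate 1. The counts for the primary pollutants, the difference and the controls were 0 under every alternative run. Called pathway genes after the PCA pollutants, 11 as reported, numbered 40 with no fold limit, 0 by treat and 6 with the morning controls. After the primary pollutants there were 2 (CCL2 and NFKBIA) with a trended and robust prior and by unadjusted analysis of variance, and 3 with the evening controls (FGB besides). Arrays left out leave a group with 1 array, assumed to vary like the others.

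Replicate numbers did not pair the arrays, since deviations of same-numbered arrays correlated at -0.0975 for the morning and 0.00477 for the evening pair of groups. With a replicate block the count after the PCA pollutants was 2, with IL11 and IL1A both called, and the difference between the responses of CXCL8 no longer passed (adjusted p = 0.0852). The low signals of IL6 and IL1A limit what can be said of their changes.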
